A study of Mus musculus with 63 samples.

Results

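The genes described here are 10 crypt base stem cell genes of the mouse small intestine, Olfm4, Lgr5, Ascl2, Smoc2, Msi1, Slc12a2, Cdca7, Myb, Hopx and Lrig1, taken by name from the 54752 genes of the count tables. RNA-seq was read from 57 libraries in 19 groups of 3, made from organoids and from intestinal epithelial cells (IECs) of C57BL/6 background mice in which the Mediator kinases CDK8 and CDK19 were lost singly or together. A VillinCreERT2 transgene, whose villin promoter drives a tamoxifen-dependent Cre in intestinal epithelium, deleted floxed Cdk8 after 4-hydroxytamoxifen (4-OHT, 100 nM for 24 h), while Cdk19 was null in the germ line. The question put to these genes was whether their mRNA levels followed CDK8 loss, CDK19 loss, the loss of both, the time since 4-OHT, added Wnt3 and the kinase activity of CDK19.

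At day 7, 5 organoid groups had all received 4-OHT: VillinCreERT2 controls, C57BL/6 controls without Cre, VillinCreERT2 with Cdk8 fl/fl (CDK8 loss), Cdk8 fl/fl with Cdk19 ko/ko and no Cre (CDK19 loss), and VillinCreERT2 with Cdk8 fl/fl and Cdk19 ko/ko (combined loss). A time course followed another line of this last genotype for 3, 5, 7 and 10 days after 4-OHT or after the ethanol vehicle (EtOH), so that both arms lacked CDK19. The same line was grown with Wnt3-conditioned medium (Wnt3-CM) to day 10, with EtOH or 4-OHT. Organoids with VillinCreERT2, Cdk8 fl/fl and Cdk19 ko/D173A, which carry 1 Cdk19 allele of the kinase-inactivating D173A form, received EtOH or 4-OHT for a day 7 harvest. The IECs came from VillinCreERT2 mice and from VillinCreERT2 mice with Cdk8 fl/fl and Cdk19 ko/ko, both given tamoxifen at 80 mg/kg on 5 days and killed 14 days later. Each organoid group was 1 line, nothing in the labels says that its 3 libraries were separate derivations, and p-values then measure the spread between these libraries. No VillinCreERT2 line without floxed Cdk8 was followed with EtOH, so in the time course 4-OHT with Cre activity and deletion of Cdk8 cannot be told apart.

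Crypt base columnar cells divide throughout life and renew the epithelium, and they depend on Wnt, R-spondin, EGF and Notch signals given by Paneth cells and by the stroma below. Wnt signals act through beta-catenin and TCF factors, whose targets include much of the stem cell programme. CDK8 and CDK19 are alternative kinases of the Mediator complex, which links transcription factors to RNA polymerase II.

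Among the members that receive or read Wnt signals, Lgr5 (ENSMUSG00000020140.15, chr10:115450311-115587780, minus strand) encodes an R-spondin receptor and is the best known marker of these cells, and Ascl2 (ENSMUSG00000009248.6, chr7:142966829-142969264, minus strand) encodes a basic helix-loop-helix factor that works with TCF factors. Olfm4 (ENSMUSG00000022026.7, chr14:79984081-80023139, plus strand) encodes a secreted glycoprotein that marks crypt base cells and responds to Notch. Smoc2 (ENSMUSG00000023886.10, chr17:14279506-14404790, plus strand) encodes a matricellular protein, and Msi1 (ENSMUSG00000054256.11, chr5:115429599-115455698, plus strand) an RNA-binding regulator of translation. Slc12a2 (ENSMUSG00000024597.10) encodes the sodium, potassium and chloride cotransporter NKCC1. Cdca7 (ENSMUSG00000055612.15, chr2:72476159-72486893, plus strand) encodes a DNA-binding protein of cycling cells, and Myb (ENSMUSG00000019982.15, chr10:21124935-21160984, minus strand) a transcription factor of crypt progenitors. Hopx (ENSMUSG00000059325.14, chr5:77086988-77115121, minus strand) encodes an atypical homeodomain protein used as a marker of reserve stem cells, and Lrig1 (ENSMUSG00000030029.14, chr6:94604529-94700158, minus strand) a membrane protein that restrains ErbB receptors. Coordinates are of GRCm38 and span the whole gene, and the counts sum its exons.

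Stretches upstream of 3 members are printed because these genes are known to answer to Wnt or Notch factors or moved in many of the comparisons that follow. They are RefSeq sequence of GRCm38.p6, 5′ to 3′ on the gene's strand, cut before the first GENCODE exon base in the window before the RefSeq start: Olfm4 at chr14:80000052-80000250, Ascl2 at chr7:142969265-142969514 and Cdca7 at chr2:72475969-72476158. The Olfm4 stretch lies within the gene's span, in the first intron of a longer annotated transcript that starts farther upstream.
Olfm4: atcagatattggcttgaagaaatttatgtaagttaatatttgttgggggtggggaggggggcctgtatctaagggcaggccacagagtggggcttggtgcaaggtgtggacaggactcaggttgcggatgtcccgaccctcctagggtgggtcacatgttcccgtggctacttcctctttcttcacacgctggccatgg
Ascl2: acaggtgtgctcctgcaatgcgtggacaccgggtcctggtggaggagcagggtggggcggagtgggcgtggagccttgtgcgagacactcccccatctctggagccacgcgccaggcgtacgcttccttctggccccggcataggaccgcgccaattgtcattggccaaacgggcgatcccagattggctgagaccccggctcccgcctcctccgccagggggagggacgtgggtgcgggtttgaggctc
Cdca7: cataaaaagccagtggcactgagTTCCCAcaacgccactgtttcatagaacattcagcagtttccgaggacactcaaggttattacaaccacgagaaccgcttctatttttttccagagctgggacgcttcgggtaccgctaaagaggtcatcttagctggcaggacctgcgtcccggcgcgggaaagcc
Promoter windows of 250 bases before the start were matched for 6 of the 10 members, as 7 windows. The word CTTTGA of TCF/LEF factors stood in 13.8% of 32851 windows of this length, read on both strands, and in 0 of the 7. The E-box CAGCTG stood in 13.0% of all windows and in 0 of the 7. The RBPJ word TGGGAA, read by the DNA-binding partner of Notch, stood in 21.6% of all windows and in 2 of the 7, those of Cdca7 and Olfm4. Capitals in the Cdca7 sequence mark it on the minus strand, 227 bases before the start, and in Olfm4 it lay 12 bases before the start, past the end of the stretch printed. A word match is a description of the letters and not of binding, and Lgr5, Smoc2, Msi1 and Slc12a2 had no window matched.

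Library totals ranged from 15485959 to 32909565 counts, and each of the 10 genes was counted and passed the filter on low counts in every comparison. Levels are given as CPM, counts scaled to a common library size within each table, and summed markers of immune cells and mesenchyme were near 0 in the organoids, apart from 40.2 CPM of mesenchyme genes in 1 EtOH day 7 library. Per kilobase of exon, Olfm4 was the most abundant member in the VillinCreERT2 organoids at 322 CPM/kb, and Hopx, Smoc2, Lrig1, Cdca7 and Myb followed at 37.3, 30.3, 25.7, 22.9 and 11.4 CPM/kb. Lgr5, Ascl2 and Msi1 had the lowest levels of the 9 members with a length, at 2.71, 2.63 and 2.62 CPM/kb. Antisense genes overlap several members and strand use in the counting is not given. The largest of these, Slc25a26, had 7892 counts over the 57 libraries against 170904 for Lrig1, and Hopxos had 884 against 49355 for Hopx. Changes are log2 fold changes with their standard errors (SE) from 1 model per table over all genes. A gene is said to have risen or fallen where its Benjamini-Hochberg adjusted p over all genes tested was under 0.05 and its fold change above 1.5. In whole organoids or IECs, fewer stem cells and less RNA per cell cannot be told apart.

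In the time course the change after 4-OHT was positive for most of the stem cell genes at day 3 and negative for each of them from day 5. At day 3, Ascl2 rose and 8 of the 10 genes had positive changes, with a median log2 fold change of 0.32 against -0.02 over all genes tested. Olfm4 was at 1113, 1096 and 1114 CPM in the EtOH libraries and at 1483, 1436 and 1477 CPM after 4-OHT (log2 fold change 0.40, SE 0.16, adjusted p = 0.0614). The 3 treated libraries all lay above the 3 vehicle libraries, although the change was under 1.5-fold. Ascl2 was at 17.3, 16.8 and 17.0 CPM with EtOH and at 40.1, 32.1 and 28.7 CPM with 4-OHT (log2 fold change 0.98, SE 0.26, adjusted p = 0.00646). It was the 1 member that rose, against 6.42% of all genes. Lgr5 went from 223, 252 and 221 to 273, 291 and 279 CPM (log2 fold change 0.28, SE 0.13, adjusted p = 0.104), again without overlap. Slc12a2, Cdca7 and Msi1 had log2 fold changes of 0.53, 0.45 and 0.36, below the fold threshold, and Smoc2 was below vehicle without overlap, at -0.41. Lrig1, Hopx and Myb were at 0.20, 0.02 and -0.00. The groups did not overlap for 8 of the 10 members, against 51.2% of all genes.

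**Figure D1:**
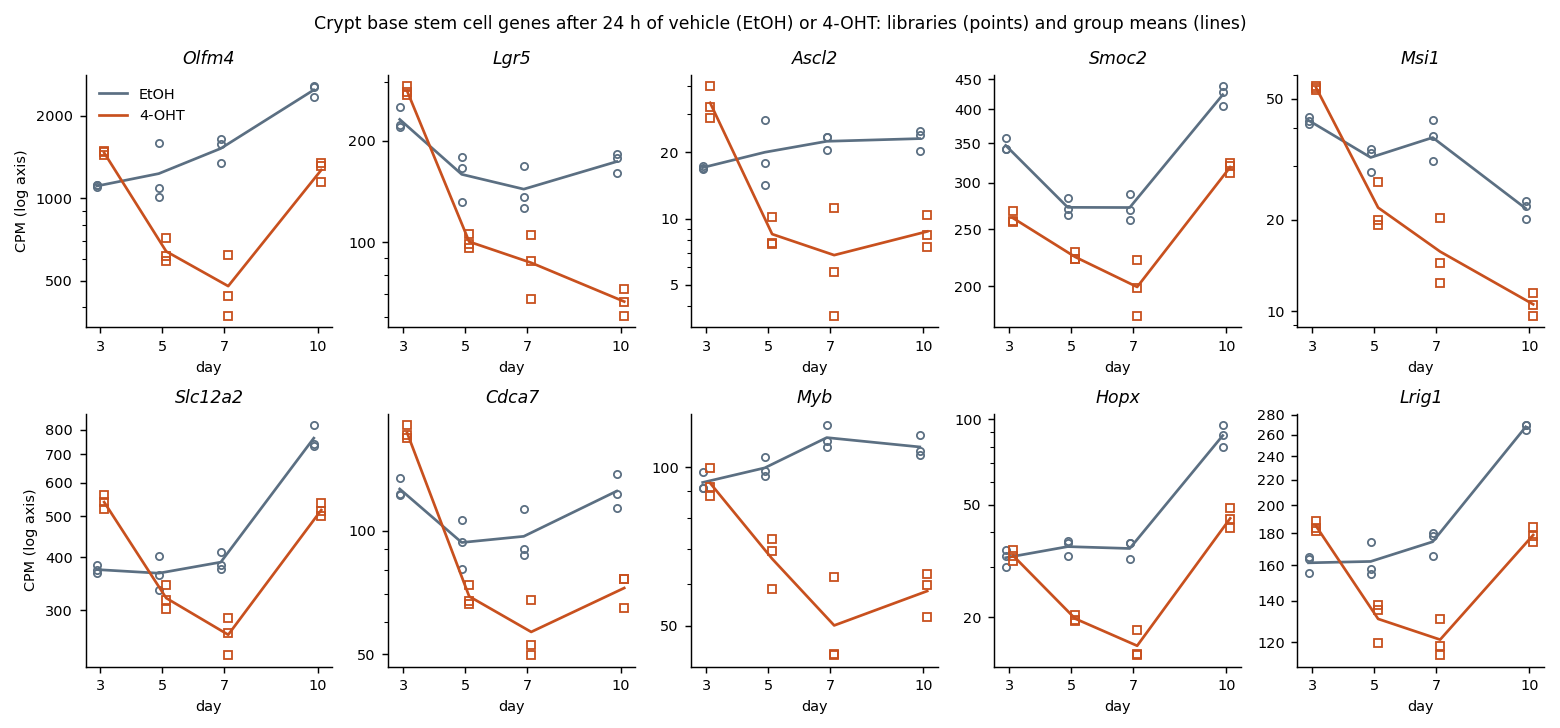
Levels of the 10 genes in CPM (y axes, log scale) by day after EtOH or 4-OHT (x axes, days 3, 5, 7 and 10) in the Cdk19-null, Cdk8-floxed line. Points are single libraries, 3 per group, and lines join group means, and Ascl2 after 4-OHT goes from between 28.7 and 40.1 CPM at day 3 to between 7.41 and 10.4 CPM at day 10.

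At day 5, 4 fell, against 4.62% of all genes, and these were Ascl2 (-1.24), Olfm4 (-0.94), Hopx (-0.84) and Lgr5 (-0.66). Lgr5 was at 167, 131 and 179 CPM with EtOH and at 99.0, 106 and 96.4 CPM with 4-OHT, and without EtOH replicate 3 its change was -0.58 and under 1.5-fold. Myb, Msi1, Cdca7, Lrig1, Smoc2 and Slc12a2 were at -0.57, -0.55, -0.44, -0.31, -0.28 and -0.19, under that fold. With 1 library left out, Myb passed the thresholds in 4 fits, without EtOH replicate 1 or 2 or 4-OHT replicate 2 or 3, at -0.59 to -0.65, and Msi1 in 2, without EtOH replicate 2 or 4-OHT replicate 3, at -0.64 and -0.72. At day 7, 7 members fell, against 9.25% of all genes. Olfm4 was at 1575, 1340.2 and 1644 CPM with EtOH and at 372, 437 and 622 CPM with 4-OHT (log2 fold change -1.67, SE 0.17, adjusted p = 1.8e-07). All 3 treated libraries lay below the lowest vehicle library. Ascl2, Msi1, Myb, Hopx, Cdca7 and Lgr5 fell with log2 fold changes of -1.72, -1.25, -1.18, -1.14, -0.77 and -0.73. Without 4-OHT replicate 1, which had the lowest treated Lgr5 level, Lgr5 was at -0.58 and no longer past the fold threshold. Slc12a2, Lrig1 and Smoc2 were at -0.57, -0.53 and -0.45. Slc12a2 passed the thresholds in 4 fits with 1 library left out, at -0.59 to -0.65 without 4-OHT replicate 2 or 3 or EtOH replicate 1 or 2, and Lrig1 without 4-OHT replicate 3, at -0.60.

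At day 10, 7 members fell, against 6.92% of all genes, and the median log2 fold change was -0.94 against 0.02 over all genes. Lgr5 was at 160.4, 183 and 178 CPM with EtOH and at 60.5, 66.7 and 72.8 CPM with 4-OHT (log2 fold change -1.38, SE 0.14, adjusted p = 7.4e-08). Ascl2 went from 20.3, 25.1 and 24.0 to 7.41, 8.39 and 10.4 CPM (log2 fold change -1.40, SE 0.28, adjusted p = 4.9e-04). Olfm4 went from 2571, 2547 and 2347 to 1149.7, 1344 and 1309.7 CPM (log2 fold change -0.97, SE 0.16, adjusted p = 7.5e-05). The changes of Msi1, Hopx, Myb and Cdca7, which also fell, were -1.05, -0.97, -0.91 and -0.78. Lrig1, Slc12a2 and Smoc2 were lower by less than 1.5-fold, at -0.58, -0.56 and -0.41. Lrig1 was close to that threshold and passed it in 6 of 13 other settings, DESeq2 among them, and Slc12a2 in 3 of 13, with values down to -0.60 and -0.59. The libraries of the arms did not overlap for any of the 10 genes, against 53.2% of all genes.

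The change of the response with time was tested in the same model. Between days 3 and 5 it became lower for 7 of the 10 members, against 9.01% of all genes, and most for Ascl2 at -2.22 (SE 0.38, adjusted p = 2.1e-04). Between days 3 and 10 it became lower for 9 members, against 12.4% of all genes, with Ascl2 at -2.38 (SE 0.38, adjusted p = 5.5e-05) and Lgr5 at -1.66 (SE 0.19, adjusted p = 4.5e-07). Smoc2 was the exception at 0.00. From day 3 to day 5, Lrig1, Myb and Smoc2 were the 3 that did not pass, at -0.51, -0.57 and 0.13. Myb passed, at -0.66 to -0.59, in the fit of the compared groups alone and in 7 fits that left out 1 library. The change of Smoc2 after 4-OHT stayed between -0.45 and -0.28 at the 4 time points, whereas that of Ascl2 ranged from -1.72 to 0.98.

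**Figure D2:**
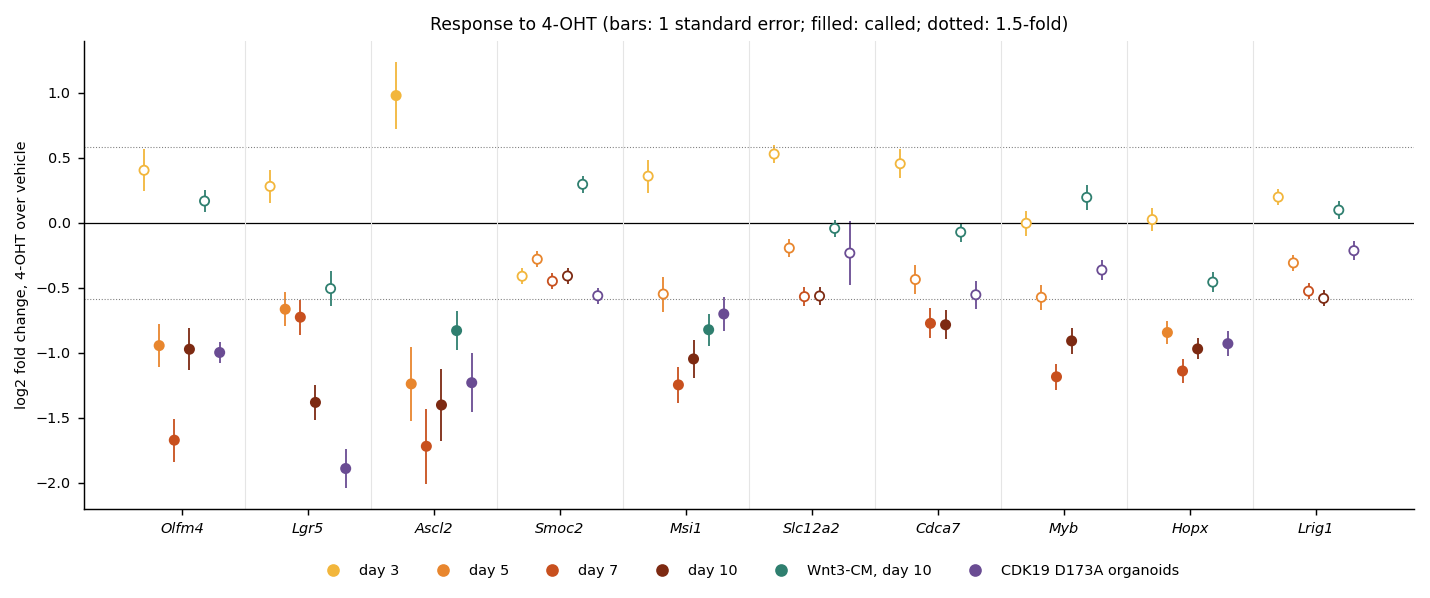
Log2 fold change of each of the 10 genes (x axis), 4-OHT over EtOH (y axis), in colours for the 4 days of the time course, for Wnt3-CM and for the D173A organoids, with bars of 1 standard error, filled points where the gene was called and dotted lines at 1.5-fold. Ascl2 runs from 0.98 at day 3 to -1.40 at day 10, and Smoc2 is negative at each day in standard medium and 0.30 in Wnt3-CM.

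The vehicle arm itself moved with time in culture. From day 3 to day 10, 4 members rose, against 16.0% of all genes, namely Hopx (log2 fold change 1.43, SE 0.08, adjusted p = 1.3e-14), Olfm4 (1.17), Slc12a2 (1.03) and Lrig1 (0.73). Msi1 was the 1 member that fell, by 0.96 on the log2 scale (adjusted p = 7.6e-07), against 22.4% of all genes. Ascl2, Smoc2, Myb, Cdca7 and Lgr5 were at 0.44, 0.29, 0.22, -0.02 and -0.42 and passed no fold threshold. Hopx was at 32.9, 34.4 and 30.0 CPM in the day 3 vehicle libraries and at 79.7, 95.2 and 87.9 CPM in those of day 10. From day 3 to day 10 after 4-OHT, mean Olfm4 went from 1465 to 1268 CPM and mean Hopx from 33.0 to 44.7 CPM, without overlap. Treated Slc12a2 went from 540 to 517 CPM and Lrig1 from 185 to 179 CPM, with overlap. The treated means of Hopx, Olfm4, Slc12a2 and Lrig1 at day 10 were 2.82, 2.66, 1.97 and 1.48 times those of day 7, without overlap of libraries. Treated Smoc2 was also higher at day 10, with a mean of 319 CPM against 199 CPM, and Msi1 was lower at 0.671 times its day 7 mean, both without overlap, while Lgr5, Ascl2, Cdca7 and Myb overlapped between these days. Levels of Olfm4 at day 10 after 4-OHT overlapped the vehicle level of day 5 and lay above that of day 3, although Olfm4 was below its own day 10 vehicle. Beside these, 8 of 20 proliferation genes rose from day 3 to day 10 with vehicle (median log2 fold change 0.53, 18 at an unadjusted p under 0.05), 4 of 14 enterocyte genes rose and 1 fell, 1 of 12 Paneth cell genes rose and 2 fell, all 3 tuft cell genes tested fell, and the part of these shifts was not tested.

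Ordered by mean level over the 8 time course groups, Olfm4 ran from day 10 EtOH (2488 CPM) through day 7 EtOH, day 3 4-OHT, day 10 4-OHT, day 5 EtOH, day 3 EtOH and day 5 4-OHT to day 7 4-OHT (477.0 CPM). Neighbours whose libraries overlapped were day 7 EtOH and day 3 4-OHT, day 10 4-OHT and day 5 EtOH, day 5 EtOH and day 3 EtOH, and day 5 and day 7 4-OHT. Lgr5 had another order, from day 3 4-OHT (281 CPM) and day 3 EtOH (232 CPM) through the vehicle groups of days 10, 5 and 7 to 4-OHT at days 5, 7 and 10 (66.7 CPM). Neighbours among those 3 vehicle groups overlapped, as did neighbours among the 3 treated groups of days 5 to 10, and the other neighbours did not. Over the 8 group means on the log2 scale, Hopx and Lrig1 were correlated at Pearson's r of 0.973, Olfm4 and Lrig1 at 0.960 and Olfm4 and Hopx at 0.942. Lgr5 and Cdca7 had an r of 0.923 and Lgr5 and Msi1 of 0.920, against 0.291 for Lgr5 and Hopx and 0.029 for Msi1 and Hopx. These values describe 8 means of 1 line that share days and arms. Among 11598 genes of enough counts, the patterns most like Olfm4 were those of Nsl1 (r = 0.994), Cdca8 (0.993) and Cdc20 (0.992). Timp2 (0.992), Dclre1a (0.985) and Pogk (0.983) were most like Lgr5, and Uhrf1 (0.992), Clspn (0.991) and Ccdc34 (0.991) most like Ascl2.

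Other genes of the crypt base, chosen as a list of 22 that held Wnt targets and surface proteins, were read over the same days. At day 3, 7 of the 18 tested rose and 1 fell, against 6.42% and 5.95% of all genes, and at day 10, 1 rose and 8 fell, against 8.86% and 6.92%. Axin2, a feedback inhibitor of Wnt signalling, had a log2 fold change of 0.61 at day 3 and -1.14 at day 10. Rnf43, which removes Wnt receptors from the surface, went from 0.82 to -0.66. The largest rises at day 3 were those of Sp5, a Wnt target factor, at 2.09, and of the hyaluronan receptor Cd44 at 1.40. At day 10 Cd44 was at -0.34 and below the fold threshold, the receptor Ephb2 fell by 0.94 and the progenitor factor Sox9 by 0.86. Gkn3, a secreted protein, was the 1 gene of the list that rose at day 10, at 1.28. Wnt3, the Paneth cell ligand, rose at day 3 by 0.68 and at day 10 fell by 1.45. The growth factor Egf, read at few counts, passed the threshold at no day, with -0.29 at day 10.

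Markers of other states moved beside these genes. Of all genes, 6.42%, 8.58%, 9% and 8.86% rose at days 3, 5, 7 and 10, and 5.95%, 4.62%, 9.25% and 6.92% fell. Of 20 proliferation genes, by edgeR 0 passed at day 3 with 14 at an unadjusted p under 0.05 and a median log2 fold change of 0.34, 13 fell at day 5, 19 at day 7 and 7 at day 10. Mki67, the Ki-67 antigen, had a change of -1.33 at day 10. Of 12 Paneth cell genes, 1 fell and 1 rose at day 3, 10 fell at day 5, 9 fell and 1 rose at day 7, and 10 fell and 1 rose at day 10, with medians of 0.09, -0.96, -1.23 and -1.55. All 3 tuft cell genes tested fell at days 5, 7 and 10. Of 14 enterocyte genes, 10 fell at day 3, with a median of -1.20, 2 fell and 2 rose at day 5, 3 rose at day 7 and 5 rose at day 10. The part of cell composition in the levels of the stem cell genes was not tested.

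In Wnt3-CM 4-OHT lowered Ascl2 and Msi1, and 3 other members differed from vehicle by less than 1.5-fold. In all, 2 of the 10 members fell, against 7.42% of all genes, and the median log2 fold change was -0.06 against 0.00 over all genes. Ascl2 was at 9.88, 11.9 and 14.4 CPM with EtOH and at 5.41, 7.53 and 7.35 CPM with 4-OHT (log2 fold change -0.83, SE 0.15, adjusted p = 1.5e-04). Msi1 went from 12.4, 12.7 and 14.0 to 6.21, 7.73 and 8.13 CPM (log2 fold change -0.82, SE 0.12, adjusted p = 1.1e-05). Neither gene's groups overlapped. Lgr5 went from 74.6, 88.8 and 98.6 to 51.9, 71.7 and 60.9 CPM (log2 fold change -0.51, SE 0.13, adjusted p = 0.0111), under 1.5-fold in the fit of all libraries. Without EtOH replicate 1 it was at -0.61 and without 4-OHT replicate 2 at -0.62, both past the thresholds. Olfm4 was at 734, 751 and 843 CPM with EtOH and at 752, 898 and 964 CPM with 4-OHT, with overlapping libraries (log2 fold change 0.17, SE 0.09, adjusted p = 0.115). The 95% interval of that change ran from -0.00 to 0.33. Hopx at -0.46 and Smoc2 at 0.30 did not overlap their vehicle libraries but stayed under 1.5-fold. Myb, Lrig1, Slc12a2 and Cdca7 were at 0.19, 0.10, -0.04 and -0.07.

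A joint fit of the Wnt3-CM libraries with day 10 of the time course compared the responses to 4-OHT, and medium and count table cannot be told apart in it. The response was higher in Wnt3-CM for 6 members, against 7.11% of all genes. Olfm4 differed by 1.14 on the log2 scale (SE 0.12, adjusted p = 1.1e-06) and Myb by 1.10 on the log2 scale (SE 0.13, adjusted p = 4.4e-06). Lgr5, Cdca7, Smoc2 and Lrig1 differed by 0.87, 0.71, 0.70 and 0.68. Ascl2, Slc12a2, Hopx and Msi1 were at 0.57, 0.52, 0.51 and 0.22 and did not pass, although leaving out 1 library brought Ascl2 past the thresholds in 4 fits, at 0.66 to 0.72. The levels were scaled separately in each table. Olfm4 with EtOH averaged 776 CPM in Wnt3-CM and 2488 CPM in standard medium, a ratio of 0.312, and the ratios of Myb, Smoc2, Lgr5, Ascl2, Lrig1 and Msi1 were 0.398, 0.433, 0.503, 0.521, 0.571 and 0.598. Cdca7, Slc12a2 and Hopx with EtOH were at 0.749, 0.860 and 0.866, and of the 10 Hopx alone overlapped. After 4-OHT the Lgr5, Lrig1, Myb and Ascl2 levels were 0.923, 0.914, 0.855 and 0.774 times those in standard medium, with overlapping libraries. Treated Olfm4, Msi1 and Smoc2 were at ratios of 0.687, 0.699 and 0.706, and Slc12a2, Cdca7 and Hopx at 1.23, 1.23 and 1.24, without overlap. Treated Lgr5 was at 51.9, 71.7 and 60.9 CPM in Wnt3-CM beside 60.5, 66.7 and 72.8 CPM in standard medium.

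**Figure D3:**
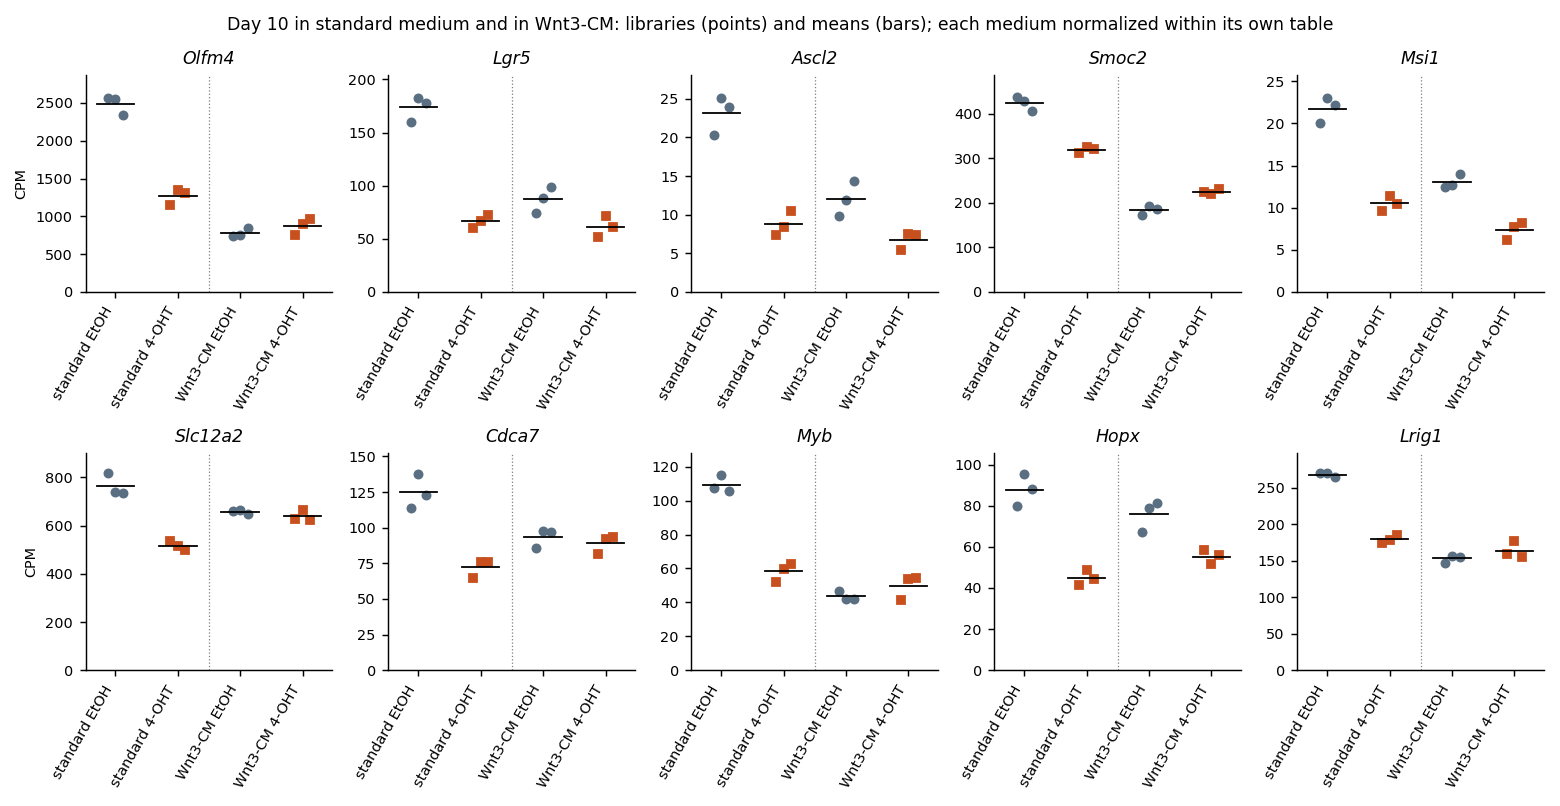
Levels of the 10 genes in CPM (y axes, linear from 0) at day 10 with EtOH and with 4-OHT in standard medium and in Wnt3-CM (x axes), with single libraries as points, 3 per group, and means as bars, each medium scaled in its own table. Olfm4 with EtOH averages 2488 CPM in standard medium and 776 CPM in Wnt3-CM.

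Of the other crypt base genes, 2 rose and 3 fell in Wnt3-CM among 19 tested, against 9.45% and 7.42% of all genes. Axin2 and Rnf43 were at -0.02 and -0.05 and passed no threshold, Sox9 fell by 0.90 and Gkn3 rose by 1.40. Wnt3 itself fell by 0.97. Proliferation genes had 3 rises among 20, and their response was higher than in standard medium for 18, with Mki67 at 0.02 in Wnt3-CM and a difference of 1.35. Paneth genes had 11 falls and 1 rise among 12. Median summed CPM of tuft and goblet cell genes in Wnt3-CM was 2.61 and 1777 after 4-OHT, beside 21.5 and 2879 with EtOH. That of enterocyte genes was 12330 beside 11234, with overlapping libraries. The part of these other states in the stem cell gene levels was not tested.

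At day 7 across genotypes, single loss of CDK8 or CDK19 changed 2 stem cell genes each past the thresholds, and combined loss lowered 6. After CDK8 loss 2 of the 10 rose, against 2.90% of all genes. Positive changes were seen for 9, with a median log2 fold change of 0.17 against 0.02 over all genes. In the same comparison edgeR called 0 of 20 proliferation genes, although all 20 were positive with a median of 0.41 and 19 at an unadjusted p under 0.05. Of 14 enterocyte genes 7 fell, against 4.34% of all genes, with a median of -0.53. The part of both lists in the stem cell gene levels was not tested. Ascl2 was at 4.32, 3.36 and 5.15 CPM in the VillinCreERT2 controls and at 8.50, 7.51 and 6.96 CPM after CDK8 loss (log2 fold change 0.84, SE 0.14, adjusted p = 6.9e-05). Cdca7 was at 78.2, 68.7 and 73.4 CPM in the controls and at 123, 115 and 117 CPM after CDK8 loss (log2 fold change 0.69, SE 0.07, adjusted p = 5.8e-08). Neither overlapped. Olfm4 was at 953, 859.7 and 1046 CPM in these controls and at 1114, 1150.2 and 823 CPM after CDK8 loss, with overlap (log2 fold change 0.11, SE 0.16, adjusted p = 0.649). Myb, Smoc2, Lrig1, Msi1, Slc12a2, Hopx and Lgr5 were at 0.28, 0.23, 0.20, 0.15, 0.05, 0.01 and -0.08. Against the C57BL/6 controls, which lack Cre as that line does, CDK19 loss lowered 2 members, against 2.39% of all genes. Negative changes were seen for 9, with a median of -0.28 against -0.01 over all genes. The groups did not overlap for 7, against 30.8% of all genes. Lgr5 was at 58.6, 55.1 and 60.6 CPM in these controls and at 26.9, 28.5 and 33.2 CPM after CDK19 loss (log2 fold change -0.98, SE 0.09, adjusted p = 3.3e-08). Olfm4 went from 899, 891 and 935 to 589.6, 509 and 622 CPM (log2 fold change -0.66, SE 0.16, adjusted p = 0.0167), and its adjusted p was 0.065 without C57BL/6 replicate 3 and 0.0588 without CDK19-loss replicate 2. Ascl2 was at -0.52, and at -0.59 and past the thresholds without C57BL/6 replicate 1. Slc12a2, Smoc2, Cdca7, Hopx, Lrig1, Msi1 and Myb were at -0.39, -0.35, -0.22, -0.14, -0.11, -0.08 and 0.05.

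The control lines differed from each other and from the mutant lines in more than Cdk8 and Cdk19. Xist was between 342 and 804 CPM and Ddx3y at 0 in both control lines, whereas Ddx3y was between 55.9 and 71.1 CPM in the 3 mutant lines, so sex of the line and genotype cannot be told apart. Compared with VillinCreERT2, C57BL/6 organoids had higher levels of 3 members, against 15.5% of all genes, with Ascl2 at 1.19, Lgr5 at 1.06 and Cdca7 at 0.63. Cdca7 was at 0.58 and under the fold threshold without VillinCreERT2 replicate 2. Msi1 was at -0.54, and at -0.62 and -0.63 past the thresholds without C57BL/6 replicate 3 or VillinCreERT2 replicate 2. Hopx, Smoc2, Lrig1, Olfm4, Myb and Slc12a2 were at 0.28, 0.03, -0.02, -0.07, -0.23 and -0.40. Median summed CPM of Paneth, enteroendocrine and proliferation genes was 6164, 662 and 2293 in C57BL/6, beside 3560, 384 and 1942 in VillinCreERT2. Goblet and enterocyte genes summed to 2549 and 16420 in C57BL/6, beside 3357 and 21390. The part of these markers in the stem cell gene levels was not tested. Set against the mean of both controls, CDK8 loss left Ascl2 at 0.25 and Cdca7 at 0.37, both under the fold threshold, and CDK19 loss left Lgr5 at -0.44. On that scale Lgr5 was at -0.62 after CDK8 loss and at -0.75 after combined loss, both past the thresholds.

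Combined loss against the VillinCreERT2 controls lowered 6 of the 10 genes, against 7.95% of all genes, with a median log2 fold change of -0.64 against -0.00 over all genes. Olfm4 was at 284, 237 and 365 CPM after combined loss, below each library of the other 4 lines (log2 fold change -1.69, SE 0.16, adjusted p = 5.0e-06). Msi1 went from 17.6, 13.3 and 14.6 to 5.85, 4.29 and 5.65 CPM (log2 fold change -1.53, SE 0.16, adjusted p = 9.7e-08). Ascl2 was at 1.77, 1.69 and 2.55 CPM after combined loss (log2 fold change -1.09, SE 0.19, adjusted p = 2.2e-05). Myb, Slc12a2 and Smoc2 fell by 0.72, 0.68 and 0.60 on the log2 scale. Slc12a2 was at -0.58 without combined-loss replicate 2, and Smoc2 at -0.54 without that library or without VillinCreERT2 replicate 3, each then under 1.5-fold. Slc12a2 was also under it against the mean of both controls, at -0.48, where Hopx passed it at -0.70, and Smoc2 was at -0.55 with upper quartile factors and at -0.58 with a stricter count filter. Lgr5 was at 31.6, 25.8 and 25.9 CPM in the controls and 23.5, 22.0 and 26.3 CPM after combined loss, with overlap (log2 fold change -0.22, SE 0.10, adjusted p = 0.0673). Hopx, Lrig1 and Cdca7 were at -0.56, -0.29 and -0.00 and passed no fold threshold. Hopx passed it without VillinCreERT2 replicate 2, at -0.59, and without combined-loss replicate 3, at -0.65.

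Beside the single losses, combined loss had lower levels of 7 members than CDK8 loss, against 8.65% of all genes, and of 4 members than CDK19 loss, against 4.26% of all genes. The 7 were Ascl2 (-1.93), Olfm4 (-1.80), Msi1 (-1.67), Myb (-1.00), Smoc2 (-0.83), Slc12a2 (-0.73) and Cdca7 (-0.69), beside Hopx at -0.57, Lrig1 at -0.49 and Lgr5 at -0.13, and Hopx passed at -0.63 without CDK8-loss replicate 3 and at -0.64 without combined-loss replicate 3. The 4 were Ascl2 (-1.76), Olfm4 (-0.96), Msi1 (-0.91) and Hopx (-0.71). Myb was at -0.54 and passed the thresholds without CDK19-loss replicate 2, at -0.65, or without combined-loss replicate 3, at -0.60. Cdca7, Lgr5, Smoc2, Lrig1 and Slc12a2 were at -0.42, -0.30, -0.28, -0.16 and 0.10. The difference between combined loss and the sum of the single losses, each against its own control, passed the thresholds for 5 members, against 19.6% of all genes in either direction. Msi1, Ascl2, Olfm4 and Myb were lower than that sum, at -1.59, -1.41, -1.14 and -1.05 on the log2 scale. Lgr5 was higher than the sum by 0.84 (adjusted p = 2.7e-05). The VillinCreERT2 controls cancel in this difference, so that C57BL/6 is the only control line left in it. Mean Lgr5 was 58.1 CPM in C57BL/6, beside 23.9, 26.2 and 29.5 CPM after combined, CDK8 and CDK19 loss. Ddx3y was absent in C57BL/6 and present in the mutant lines, so sex of the line and genotype cannot be told apart here. Both Lgr5 and Ascl2 had differed between the control lines. Smoc2, Cdca7, Hopx, Lrig1 and Slc12a2 were at -0.48, -0.47, -0.43, -0.37 and -0.35.

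**Figure D4:**
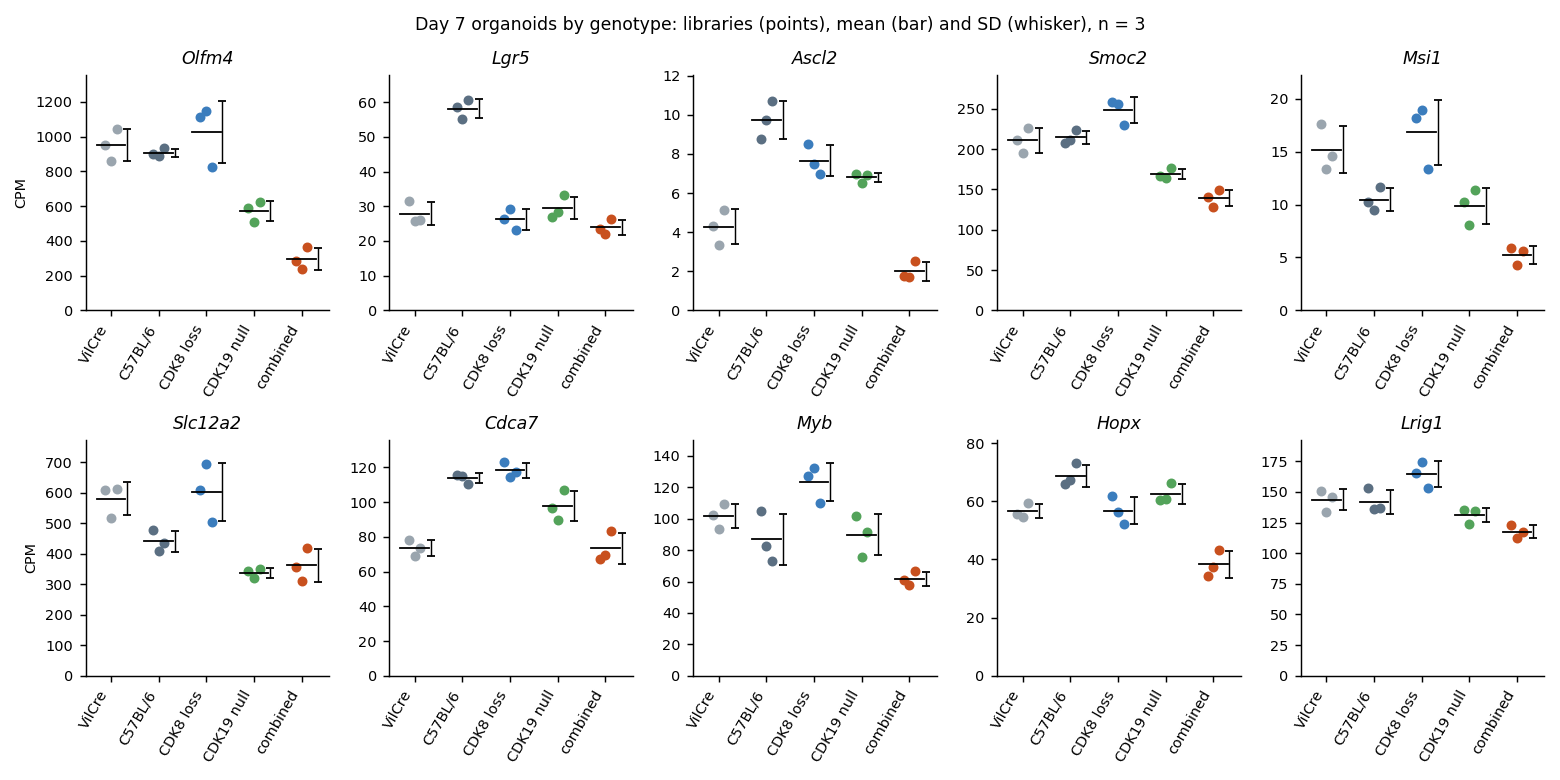
Levels of the 10 genes in CPM (y axes, linear from 0) in the 5 organoid lines at day 7 after 4-OHT (x axes), with single libraries as points, 3 per line, means as bars and the SD as whiskers. Olfm4 after combined loss lies between 237 and 365 CPM, below every library of the other lines, while Lgr5 is highest in C57BL/6.

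Levels after combined loss can be set beside those of the time course at day 7, which came from another line and another table. Mean Lgr5 was 23.9 CPM in the line of the genotype series and 86.9 CPM in that of the time course after 4-OHT, mean Ascl2 was 2.00 and 6.82 CPM, and mean Hopx was 38.3 and 15.9 CPM. Of the 22 other crypt base genes, 20 were tested after combined loss, of which 2 rose and 5 fell, against 11.5% and 7.95% of all genes, with Axin2 at -1.46, Rnf43 at -0.63, Sox9 at -0.73 and Gkn3 at 2.49. Wnt3 fell by 1.39 and Paneth genes had 9 falls and 1 rise among 12. Median summed CPM of tuft, enteroendocrine and goblet cell genes was 3.32, 243 and 2270, beside 18.2, 384 and 3357 in the VillinCreERT2 controls. That of enterocyte genes was 21031 beside 21390, with overlapping libraries. The part of cell composition in the stem cell gene levels was not tested here. Of the 20 proliferation genes edgeR called 0 against the VillinCreERT2 controls, with 11 at an unadjusted p under 0.05 and a median of -0.19, and 10 were lower than after CDK8 loss.

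With 1 Cdk19 allele of the kinase-inactive D173A form, 4-OHT also lowered stem cell genes. Here 5 of the 10 fell, against 6.25% of all genes. Lgr5 was at 37.8, 58.3 and 51.5 CPM with EtOH and at 13.0, 13.9 and 12.8 CPM with 4-OHT (log2 fold change -1.89, SE 0.15, adjusted p = 3.4e-05). The treated libraries were close together and all below the lowest vehicle library. Ascl2 went from 2.03, 3.18 and 2.99 to 1.21, 1.13 and 1.15 CPM (log2 fold change -1.23, SE 0.23, adjusted p = 0.00274). Olfm4 went from 466, 542 and 484 to 274, 235 and 237 CPM (log2 fold change -1.00, SE 0.08, adjusted p = 1.9e-05), and Hopx and Msi1 fell by 0.93 and 0.70 on the log2 scale. Cdca7 and Smoc2 were at -0.55 and -0.56, under 1.5-fold in the fit of all libraries. Cdca7 passed at -0.68 without EtOH replicate 1 and at -0.62 without 4-OHT replicate 3, and Smoc2 at -0.60 without EtOH replicate 3 and at -0.59 without 4-OHT replicate 1. Myb and Lrig1 were at -0.36 and -0.21. Slc12a2, at -0.23, had overlapping groups, 416, 366 and 352 CPM with EtOH and 447, 269 and 248 CPM with 4-OHT. The columns of these 6 libraries are named for the treatment but not for the genotype, and they were matched to D173A by elimination.

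The response with the D173A allele was set against that of the null line at day 7 in a joint fit, where allele, line, its sex (Xist at 375 CPM or more with D173A, Ddx3y at 26.5 CPM or more in the null line) and count table cannot be told apart. It differed for 3 members, against 11.1% of all genes in either direction. Lgr5 was lower with D173A, at -1.17 (SE 0.25, adjusted p = 0.00822), and Myb was higher by 0.82 (SE 0.15, adjusted p = 0.00146). Olfm4 was higher by 0.67 at an adjusted p of 0.0433, which was between 0.0517 and 0.111 when any 1 of 10 of the 12 libraries was left out. Without 4-OHT replicate 3 of the null line, Ascl2 and Msi1 also differed, at 1.02 and 0.77, beside 0.49 and 0.55 with all libraries. Slc12a2, Lrig1, Cdca7, Hopx and Smoc2 were at 0.33, 0.31, 0.22, 0.21 and -0.11. Of 19 other crypt base genes tested with D173A, 2 rose and 8 fell, against 6.05% and 6.25% of all genes, with Axin2 at -1.09, Rnf43 at -0.72, Ephb2 at -0.85 and Sox9 at -0.86. Wnt3 fell by 1.65. Markers of other states moved here too, and their part was not tested. Of 20 proliferation genes 1 fell, while 19 had negative changes and 16 an unadjusted p under 0.05, with a median of -0.33. Of 12 Paneth genes 10 fell and 1 rose, all 6 tuft cell genes fell, and 8 of 14 enterocyte genes rose.

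In IECs the 10 genes were all lower on average in the mice with combined loss than in VillinCreERT2 mice, and 2 of them passed the test and fell, against 0.856% of all genes. The median log2 fold change was -0.85 against 0.00 over all genes. Olfm4 was at 688, 613 and 868 CPM in the control mice and at 285, 398 and 247 CPM in those with combined loss (log2 fold change -1.22, SE 0.21, adjusted p = 0.0466). Smoc2 went from 47.4, 52.6 and 63.1 CPM to 30.2, 30.3 and 24.8 CPM (log2 fold change -0.93, SE 0.14, adjusted p = 0.0361). Both genes had non-overlapping groups. Lgr5 had the largest change of the members and was at 11.6, 8.48 and 16.5 CPM in controls and at 3.55, 4.74 and 2.26 CPM after combined loss, without overlap, but missed the threshold (log2 fold change -1.80, SE 0.34, adjusted p = 0.0626). For Ascl2 the control mice were at 5.27, 6.25 and 8.35 CPM and those with combined loss at 2.62, 4.13 and 3.04 CPM (log2 fold change -1.02, SE 0.26, adjusted p = 0.115). Slc12a2, at 167, 158 and 213 CPM in controls and 77.2, 158 and 81.8 CPM after combined loss, had 1 library with combined loss at the level of the controls. Myb, Slc12a2, Msi1, Lrig1, Hopx and Cdca7 were at -0.95, -0.76, -0.72, -0.66, -0.51 and -0.43 and did not pass. The groups did not overlap for 8 of the 10, against 26.8% of all genes, and edgeR gave 9 members an unadjusted p under 0.05.

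Library makeup varied among the IECs, and its part in these values was not tested. Summed CPM of 10 mesenchyme genes was 8.01, 872 and 46.9 in the control mice and 922, 584 and 451 after combined loss, and that of 12 immune genes was 1772, 3262 and 2915 in controls and 3504, 2296 and 2091 after combined loss. Igkc, an immunoglobulin gene of plasma cells, was at 10.1, 117 and 12.1 CPM in controls and at 527, 299 and 357 CPM after combined loss. The Y-linked gene Ddx3y was at 30.2 CPM in combined-loss replicate 2 and at 0.103 CPM or less in the other 5 libraries, where Xist, which silences an X chromosome in female cells, was at 113 CPM or more. Without that library and control replicate 2, a choice made after seeing the data, 8 members fell, against 3.14% of all genes. These were the libraries of each group nearest to the other group in Lgr5 and Olfm4, so that leaving them out widens those differences by choice, and it leaves mesenchyme sums of 8.01 and 46.9 CPM against 922 and 451 CPM. With 1 library left out at a time, 0 members passed without control replicate 1 or 3 or combined-loss replicate 1 or 3, each time with 7 at an unadjusted p under 0.05, and 4 and 6 passed without replicate 2 of the controls or of combined loss. The calls over all genes moved too, from 3 to 1566 among these fits, beside 228 with all libraries. Of the 22 other crypt base genes edgeR called 0, with 9 at an unadjusted p under 0.05 and a median of -0.55, 6 of 12 Paneth genes fell, and 1 of 20 proliferation genes fell. All 20 proliferation genes were negative, with a median of -0.44 and 11 at an unadjusted p under 0.05, and their summed CPM was 720, 667 and 829 in controls and 461, 664 and 417 after combined loss.

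**Figure D5:**
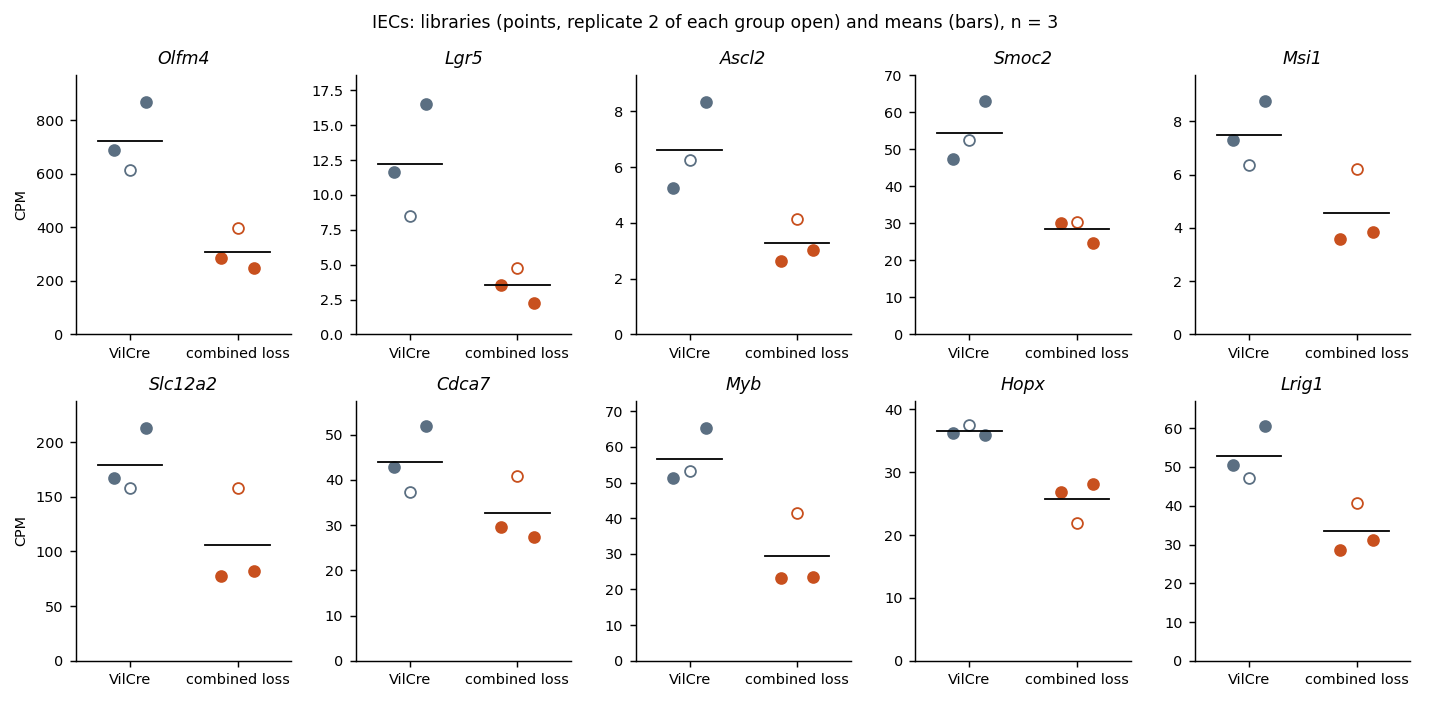
Levels of the 10 genes in CPM (y axes, linear from 0) in 3 IEC libraries of VillinCreERT2 mice and 3 of mice with combined loss (x axes), with bars at the means and open points for replicate 2 of each group. Lgr5 lies between 8.48 and 16.5 CPM in controls and between 2.26 and 4.74 CPM after combined loss, and combined-loss replicate 2 has Slc12a2 at the level of the controls.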

How the data were processed

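RNA-seq tables of whole-number counts per gene, deposited by the authors, were used as given; per the labels' processing notes, reads were aligned with STAR 2.5.2 to mm10 and counted with featureCounts of Subread 1.6.3, and strand use is not given in the sources used here. The 10 genes and all lists were chosen with earlier results of these data known. Each table was fitted whole in edgeR 4.0.16 (R 4.3.3) with TMM factors, filterByExpr and the robust quasi-likelihood F test, with 1 coefficient per group, and CPM were computed from the counts. Genes past a Benjamini-Hochberg adjusted p of 0.05 and a 1.5-fold change were called. All 10 members were named in each comparison. From the other lists, 8 preset genes and the 2 called genes of largest change that averaged at least 50 counts could be named. Likeness used Pearson's r over 8 group means. The fits reported did not treat replicate numbers as pairs. In each of 12 comparisons some same-numbered pair had a correlation under 0.1, which cannot show that the samples were unpaired. Alternatives were DESeq2 1.42.0, limma-voom 3.58.1, upper quartile factors, other count filters, fewer groups, both controls, the replicate block and each library left out. The scripts were tested on simulated data. With 3 libraries per group precision is limited by their number, and 6 IEC columns not tied to a labelled group were left out. Columns holding the authors' own fold changes and p-values were not used.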

Additional observations from a re-analysis of the deposited data

Results flagged for a closer look

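The responses below differed between settings by a test of the difference itself, with values on the log2 scale. Listed are those with edgeR's adjusted p under 0.05 and a difference above 1.5-fold, not those past the adjusted p alone. Between combined loss and the sum of the single losses at day 7, Msi1 differed by -1.59, Ascl2 by -1.41, Olfm4 by -1.14, Myb by -1.05 and Lgr5 by 0.84. Of these, Ascl2 and Lgr5 also differed between the control lines that the sum rests on, by 1.19 and 1.06.

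The response to 4-OHT at day 5 minus that at day 3 was -2.22 for Ascl2, -1.35 for Olfm4, -0.94 for Lgr5, -0.91 for Msi1, -0.89 for Cdca7, -0.87 for Hopx and -0.72 for Slc12a2. At day 10 minus day 3 it was -2.38 for Ascl2, -1.66 for Lgr5, -1.41 for Msi1, -1.38 for Olfm4, -1.24 for Cdca7, -1.09 for Slc12a2, -0.99 for Hopx, -0.90 for Myb and -0.78 for Lrig1. Both comparisons share the day 3 libraries.

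Responses at day 10 were higher in Wnt3-CM than in standard medium by 1.14 for Olfm4, 1.10 for Myb, 0.87 for Lgr5, 0.71 for Cdca7, 0.70 for Smoc2 and 0.68 for Lrig1. With the D173A allele, compared with the null line at day 7, the response differed by -1.17 for Lgr5, 0.82 for Myb and 0.67 for Olfm4. That of Olfm4, at an edgeR adjusted p of 0.0433, was not called with upper quartile factors (0.0717) or in most fits without 1 library. Medium and count table cannot be told apart in the Wnt3-CM differences, nor can allele, line, its sex and count table in those with D173A. Groups of 3 are too small for the test of a single outlying library.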

How the results depend on the processing

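Over 2720 refits of a member's change, 2608 kept their side of the thresholds, 37 lost a call, 75 gained one and 0 called changes reversed, while 56 changes that were not called took the other sign. Against the mean of both control lines 1 member was called after CDK8 loss and 1 after CDK19 loss, beside 2 each against their own control. After combined loss Slc12a2 was then at -0.48 and lost its call and Hopx was at -0.70 and gained one, and Smoc2 lost its call with upper quartile factors (-0.55), with a minimum of 10 counts (-0.58) and with only the groups compared (-0.58). Leaving out 1 library gave 1 to 3 members for CDK19 loss and 2 to 5 for the D173A response against the null. In IECs, where 2 members were called, DESeq2 gave 6, no filter on low counts 6, upper quartile factors 1, and 1 library left out 0 to 6. With replicate 2 of each IEC group left out, a choice made after seeing the data, 8 were called. Over all genes the IEC calls went from 228, of which 43.0% rose, to 859 (58.7% rose) with DESeq2, 1103 (59.5%) with no filter, 1290 (62.9%) without those 2 libraries and 3 to 1566 with 1 library left out. A minimum of 10 counts in every library gave 476 genes for CDK19 loss (794 in the fit reported) and 1303 at day 5 (2040). The causes of these shifts were not tested.

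With the replicate number as a block, 148 of 150 member results kept their call, and both exceptions were in IECs, where 0 members passed, with 9 at an unadjusted p under 0.05, and 8 genes were called in all, of which 75% rose. Olfm4 had an adjusted p of 0.134 there and Smoc2 of 0.108. The lowest same-number correlation lay between -0.41 and 0.04 over the 12 comparisons, and all 6 libraries correlated best with their own number in the comparisons of the control lines and of combined with CDK19 loss, as a hint from the data. The block was not fitted for the Wnt3-CM and D173A organoid libraries, whose columns end in numbers that nothing ties to the replicate numbers of the labels. The D173A comparison in IECs was not run. In the time course Ascl2 had a standard error of 0.26 to 0.29, and the part of depth in it was not tested.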

Other observations

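Of 6 genes of reserve and damage-induced stem cell states, 2 rose and 1 fell at day 3, against 6.42% and 5.95% of all genes, with Anxa1, an annexin of the regenerating epithelium, at 2.94 and Ly6a, which encodes SCA-1, at 1.55 on the log2 scale. At day 10 Ly6a was at -1.25 and Mex3a, an RNA-binding protein of slowly cycling crypt cells, at -1.19. Of the 6, 3 fell while 1 rose, against 6.92% and 8.86% of all genes. In Wnt3-CM 4 of the 6 fell, against 7.42% of all genes, with Ly6a at -3.15 and Clu, a secreted chaperone, at -1.60. Mex3a had a log2 fold change of -1.58 after combined loss at day 7 and -0.96 with the D173A allele.

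Of 6 Notch pathway genes tested in the time course, 1 rose at day 3, the receptor gene Notch2 at 0.84, against 6.42% of all genes. At days 5 and 7, Hes5, a target, was the 1 that fell, at -1.23 and -1.55, against 4.62% and 9.25% of all genes. At day 10, 3 of the 6 fell, against 6.92% of all genes, with Notch1 at -0.80, Notch2 at -0.94 and Hes5 at -1.77. In Wnt3-CM the targets Hes1 and Nrarp rose by 0.93 and 0.85 and Notch2 fell by 0.74, among 5 tested, against 9.45% of all genes rising and 7.42% falling. After combined loss at day 7, Hes1 rose by 0.60 while Notch1 was at -0.80 and Nrarp at -0.72, both called lower, among 5 tested with a median of 0.07, against 11.5% rising and 7.95% falling.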
